A study of Bos indicus with 6 samples.

Results

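The Müllerian duct and oviduct identity factors described here were 10 transcription factors, PAX2, PAX8, LHX1, EMX2, MSX1, SOX17, FOXA2, WT1, GATA6 and TCF21, each taken by its symbol from the 24616 genes of the isthmus table. All 10 were found, each on 1 row. The isthmus is the segment of the oviduct that joins the uterus. Tissue of its whole thickness was taken on day 4 after ovulation was induced, on the side of the corpus luteum, from 6 multiparous, non-lactating Nelore cows, and 1 RNA-Seq library was made per cow.

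The 3 LF/LCL cows (617, 79 and 527) ovulated a large follicle and formed a large corpus luteum, and the 3 SF/SCL cows (856, 489215 and 97) a small follicle and a small corpus luteum. Estrous cycles had first been aligned in all cows with a GnRH agonist (buserelin acetate, 1 µg) and, after 7 days, prostaglandin F2α as its analog sodium cloprostenol (0.5 mg). All of them received a device with 1 g of progesterone and 2 mg of estradiol benzoate on day -10, prostaglandin F2α at device removal and again 6 h later, and the GnRH agonist on day 0. The LF/LCL cows alone received prostaglandin on day -10 as well, and their device was taken out 42 h before GnRH, as compared with 30 h in the SF/SCL cows. Cows for sequencing had been ranked on follicle, corpus luteum and hormone measurements, and the highest LF/LCL and the lowest SF/SCL animals were taken, so that the groups are extremes of the animals treated.

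The oviduct, uterus and upper vagina arise from the Müllerian duct, an epithelial tube that folds in from the coelomic epithelium and grows along the Wolffian duct. PAX2, PAX8, LHX1 and EMX2 are needed to form or extend the duct, and PAX8 stays on in the adult as a marker of secretory cells of the oviduct epithelium. SOX17, FOXA2 and MSX1 act in epithelia of the tract, FOXA2 being best known from uterine glands and SOX17 also from arterial endothelium. WT1 marks the coelomic epithelium and mesothelium and is also found in stroma and muscle of the tract, whereas GATA6 and TCF21 belong mainly to mesenchymal cells.

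Recovered reads per library ran from 23899117 to 34193164, with medians of 28659214 in LF/LCL and 25472906 in SF/SCL. Values below are normalized counts, that is, reads divided by the size factor of the library, and log2 fold changes are SF/SCL over LF/LCL on log2(normalized count + 1), a value below 0 meaning a higher level in LF/LCL. Library 489215 stood apart from the other SF/SCL libraries, with a median absolute log2 difference of 0.83 from their mean over the 15387 genes tested. Results that rest on it are therefore given with and without it. Library 489215 also had the largest sum of normalized counts, 33913666, as compared with 25901138 to 26900121 in the others. Its size factor was 0.751 at 25472906 reads, while that of cow 617 was 0.955 at 25652651 reads. Where cow 489215 is given as the highest, its rank can depend on this scaling. Markers of the tissue were present in every library, with EPCAM at 8530 to 20313, the ciliary regulator FOXJ1 at 2609 to 12042 and smooth muscle MYH11 at 82654 to 191119.

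Of the 10 factors, EMX2 and SOX17 were higher in all SF/SCL cows than in all LF/LCL cows, by 1.62-fold and 1.43-fold. WT1 and PAX8 were higher in SF/SCL cows 856 and 97 than in the other 4 cows, WT1 by the larger factor, and MSX1 was lowest in the same cows. PAX2 was also highest in cows 856 and 97, though by a narrow margin in cow 97. PAX2, GATA6 and TCF21 overlapped between the groups, as did FOXA2 and LHX1, whose means were lower in SF/SCL. None of the 9 factors in the limma fit passed the adjusted threshold of 0.05, at which 0% of the 15387 genes were called by limma, 0% by edgeR and 2.66% by DESeq2. Before adjustment, 2 of the 9 had a p-value under 0.05, EMX2 and SOX17, beside 8.66% of all genes tested (1333 genes). WT1 did not enter that fit because its SD over the 6 libraries (3673) exceeded its mean (3564). Since whole tissue was sequenced, fewer cells of a type and less RNA per cell cannot be told apart.

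**Figure D1:**
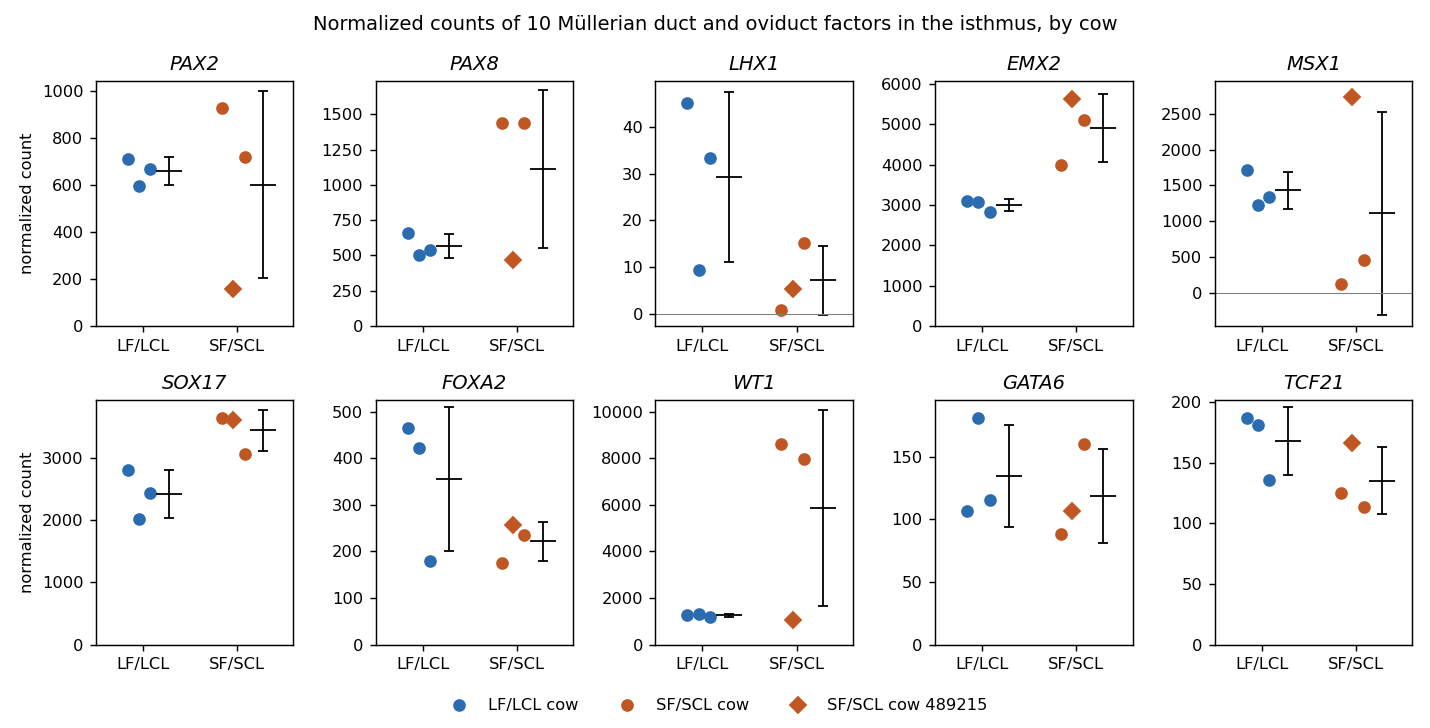
Normalized count (vertical axis, linear, its own scale in each panel, including 0 and running below it where an SD bar does) of each of the 10 factors in the 3 LF/LCL and 3 SF/SCL cows. Points are single cows, the diamond is SF/SCL cow 489215, and the black line and bar are the group mean ± SD. The SF/SCL points lie above all LF/LCL points for EMX2 and SOX17, while for WT1, PAX8, PAX2 and MSX1 cow 489215 is far from the other SF/SCL cows.

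EMX2, a homeobox factor required for the urogenital ducts, had normalized counts of 3099, 3066 and 2838 in LF/LCL cows 617, 79 and 527, and of 3995, 5626 and 5109 in SF/SCL cows 856, 489215 and 97. The lowest SF/SCL cow was thus above the highest LF/LCL cow, and the LF/LCL cows lay close together, with a coefficient of variation of 4.74%. The group means were 3001 ± 142 and 4910 ± 834 (SD, n = 3 each). The log2 fold change was 0.70 (standard error 0.19; limma, adjusted p = 0.405). In an exact permutation test, two-sided, over the 10 divisions of the cows into 3 and 3, p was 0.1, the smallest value this design can give. DESeq2 on the recovered reads called EMX2 (adjusted p = 0.0436), at a threshold passed by 2.66% of genes, and edgeR did not (adjusted p = 0.396). Leaving out each cow in turn, the log2 fold change of EMX2 stayed between 0.59 and 0.84. EMX2 had 4226 of 25472906 reads in cow 489215 and 4714 of 23899117 in cow 97. Which of these cows was the higher thus depended on the scaling.

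PAX8, the paired box factor of oviduct secretory cells, had normalized counts of 663, 503 and 539 in the LF/LCL cows 617, 79 and 527. In the SF/SCL cows it had 1441 in cow 856, 1437 in cow 97 and 469 in cow 489215, the lowest of all 6. The groups therefore overlapped through a single cow. The means were 568 ± 83.6 and 1116 ± 560 (SD, n = 3 each), with a log2 fold change of 0.81 (standard error 0.47; limma, adjusted p = 0.722). Without cow 489215 the log2 fold change was 1.35 (standard error 0.14; limma, adjusted p = 0.00352), a 2.55-fold difference.

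PAX2, the close relative of PAX8 that acts with it in the embryonic ducts, ranked the 6 cows in the same order. Cows 856 and 97 stood out less from the LF/LCL cows than they did for PAX8. Its normalized counts were 712, 594 and 668 in LF/LCL and 930, 158 and 717 in SF/SCL, in the order of cows given above. Cow 489215 was the lowest, on 119 reads, while cows 856 and 97 were above all 3 LF/LCL cows, cow 97 by a narrow margin. The means were 658 ± 59.5 and 602 ± 398 (SD, n = 3 each). The log2 fold change was -0.47 (standard error 0.65; limma, adjusted p = 0.894) and turned to 0.32 without cow 489215 (limma, adjusted p = 0.208).

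LHX1, the LIM homeobox factor of duct outgrowth, had few reads in every library and was near the limit of detection in SF/SCL cows 856 and 489215. It was covered by 43, 10 and 38 reads in the LF/LCL libraries and by 1, 4 and 14 reads in the SF/SCL libraries, where a count of 1 read has a 95% exact Poisson interval of 0.0253 to 5.57 reads, for counting error only. Cow 79 of LF/LCL lay below cow 97 of SF/SCL, so the groups overlapped. The log2 fold change of LHX1 was -2.17 (standard error 0.97; limma, adjusted p = 0.615) and depended on the pseudocount, being -2.35 with 0.5 and -1.51 with 5. It was -1.33 without SF/SCL cow 856, -2.82 without LF/LCL cow 79 and -0.83 with libraries weighted by their fit.

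SOX17, which takes part in epithelial differentiation of the tract, had normalized counts of 2800, 2025 and 2432 in LF/LCL and of 3648, 3611 and 3069 in SF/SCL. All 3 SF/SCL cows were above all 3 LF/LCL cows, and cow 489215 lay among its own group. The means were 2419 ± 388 and 3443 ± 324 (SD, n = 3 each). The log2 fold change was 0.52 (standard error 0.19; limma, adjusted p = 0.504; exact permutation test, p = 0.1), and 0.48 without cow 489215 (limma, adjusted p = 0.0807). Non-overlapping groups were seen for 2 of the 10 factors, EMX2 and SOX17, and for 18.1% of the genes tested. In both the SF/SCL values were the higher ones, as in 9.51% of genes, against 8.60% with LF/LCL higher.

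FOXA2, the forkhead factor of uterine glands, had normalized counts of 465, 421 and 178 in LF/LCL and of 174, 256 and 234 in SF/SCL. LF/LCL cow 527 lay among the SF/SCL cows, and the other LF/LCL cows were above all of them. The means were 355 ± 154 and 221 ± 42.3 (SD, n = 3 each), and the log2 fold change was -0.58 (standard error 0.42; limma, adjusted p = 0.799). Without LF/LCL cow 527 the log2 fold change was -1.02 (limma, adjusted p = 0.999).

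MSX1, a homeobox factor expressed in the developing Müllerian tract, had the largest coefficient of variation of the 10 factors within SF/SCL, 128%. Its normalized counts were 1721, 1228 and 1342 in LF/LCL, and 125, 2739 and 461 in SF/SCL cows 856, 489215 and 97. Cow 489215 was the highest of the 6 and the other SF/SCL cows the lowest, so that the log2 distance of cow 489215 from the mean of the other 2 was 3.50, a distance matched or exceeded by 2.37% of the genes tested. The means were 1430 ± 258 and 1108 ± 1422 (SD, n = 3 each). The log2 fold change of MSX1 was -1.38 (standard error 1.03; limma, adjusted p = 0.803), and -2.55 without cow 489215 (standard error 0.50; limma, adjusted p = 0.0197). Without SF/SCL cow 856 it was -0.33, and on the recovered reads of all 6 cows it was -0.40 in edgeR and -0.37 in DESeq2.

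WT1, the zinc finger factor of coelomic epithelium and mesothelium, had normalized counts of 1269, 1302 and 1180 in LF/LCL, and 8611, 1037 and 7984 in SF/SCL cows 856, 489215 and 97. The 3 LF/LCL cows differed by a coefficient of variation of 5.02%, and cow 489215 was just below them. The means were 1250 ± 62.7 and 5878 ± 4204 (SD, n = 3 each). With the condition on the SD left out, the log2 fold change of WT1 was 1.73 (standard error 0.80; limma, adjusted p = 0.619), and 0% of the 15922 genes then tested passed. The exact permutation test gave p = 0.4. On the recovered reads with the same filter, DESeq2 called WT1 (log2 fold change 2.23, adjusted p = 0.0388), as it did 3.37% of genes. Without cow 489215, WT1 was 6.63-fold higher in SF/SCL (log2 fold change 2.73, standard error 0.09; limma, adjusted p = 0.000534).

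GATA6, a zinc finger factor of mesoderm and smooth muscle, had 80 to 193 reads per library. Its normalized counts were 107, 181 and 115 in LF/LCL and 88.1, 107 and 160 in SF/SCL, which overlapped throughout. The log2 fold change was -0.19 (standard error 0.38; limma, adjusted p = 0.921), and its sign turned when LF/LCL cow 79 (0.05) or SF/SCL cow 856 (0.0016) was left out. TCF21, a basic helix-loop-helix factor of mesenchyme, had normalized counts of 187, 181 and 136 in LF/LCL and of 125, 166 and 114 in SF/SCL. Its groups overlapped too, with a log2 fold change of -0.32 (standard error 0.30; limma, adjusted p = 0.856).

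**Figure D2:**
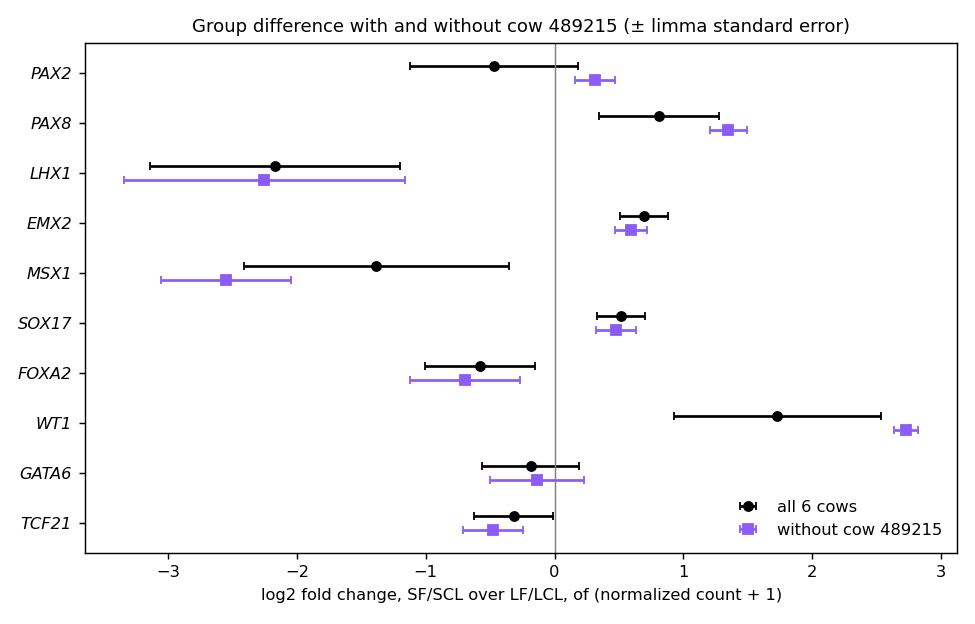
Log2 fold change of each factor, SF/SCL over LF/LCL, with its limma standard error, for all 6 cows (circles) and without SF/SCL cow 489215 (squares); for WT1 the circle comes from the fit without the condition on the SD. PAX8, WT1 and MSX1 lie farther from 0 without that cow, PAX2 changes sign, and EMX2 and SOX17 stay near 0.70 and 0.52.

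In the limma fits, cow 489215 decided which factors passed. With it left out, 4 of the 10 factors passed the adjusted threshold, PAX8, EMX2 and WT1 as higher in SF/SCL and MSX1 as lower, while 18.2% of the 15495 genes then tested also passed (2827 genes), 10.3% as higher in SF/SCL and 7.92% as higher in LF/LCL. Leaving out any other cow left 0 factors and 0 genes past it. When libraries were weighted by their fit (array weights, 0.0477 for cow 489215), PAX8, EMX2, MSX1 and SOX17 passed, as did 29.8% of genes. Cow 489215 was the highest or the lowest of the 6 cows for 5 of the 10 factors, lowest for PAX2, PAX8 and WT1 and highest for EMX2 and MSX1. In cows 856 and 97, WT1 was 7.99-fold, PAX2 5.13-fold and PAX8 3.07-fold of its level in cow 489215, on the log2(normalized count + 1) scale. Distances as large or larger were found for 4.39%, 8.96% and 20.4% of the genes tested. For LHX1, EMX2, SOX17, FOXA2, GATA6 and TCF21 that share was 70.1% to 93.1%, and the median absolute log2 distance of cow 489215 was 0.41 over the 10 factors, as compared with 0.83 over all genes.

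Marker genes of cell types differed between the cows as well. Of the 19 epithelial genes tested, such as EPCAM and KRT8, 15 had a higher mean in SF/SCL and 4 in LF/LCL, and 10 reached 0.05 before adjustment. Their median log2 fold change was 0.58, beside -0.02 over all genes tested. Summed normalized counts of the list were 58404 to 80288 in LF/LCL and 89734 to 125302 in SF/SCL, with cow 489215 the highest. Of the 15 ciliated cell genes tested, 13 had a higher mean in SF/SCL, and their sum was 31188 to 39287 in LF/LCL, 74125 to 75889 in cows 856 and 97 and 34982 in cow 489215, so that cows 856 and 97 were the highest for this list as for PAX8 and WT1. PIFO, of the same list, was at 0 in every library, which allows up to 3 reads each. The part of these cell types in the differences of EMX2, SOX17, PAX8 and WT1 was not tested.

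All 13 fibroblast genes and all 11 smooth muscle genes tested had a higher mean in LF/LCL, with median log2 fold changes of -0.86 and -0.47. PDGFRB (-1.28), COL1A1 (-1.14) and MYLK (-0.94) were among those that reached 0.05 before adjustment, and 0 of the 24 passed after it. The summed fibroblast list was 426650 to 546556 in LF/LCL and 218160 to 322455 in SF/SCL. The summed smooth muscle list was 817129 to 935308 in LF/LCL, 380132 to 442839 in SF/SCL cows 856 and 97 and 1286970 in cow 489215, which also had the highest MSX1. Genes of the smooth muscle list did not all follow this sum. ACTA2, its largest part, was at 533926 in cow 489215 and 229408 to 311661 in LF/LCL. MYH11 was at 116653 in cow 489215 and 137623 to 191119 in LF/LCL, and MYLK at 47882 and 74149 to 79842. ACTA2 was named after its values had been seen. The part of these cell types in the values of MSX1, GATA6 and TCF21 was not tested.

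**Figure D3:**
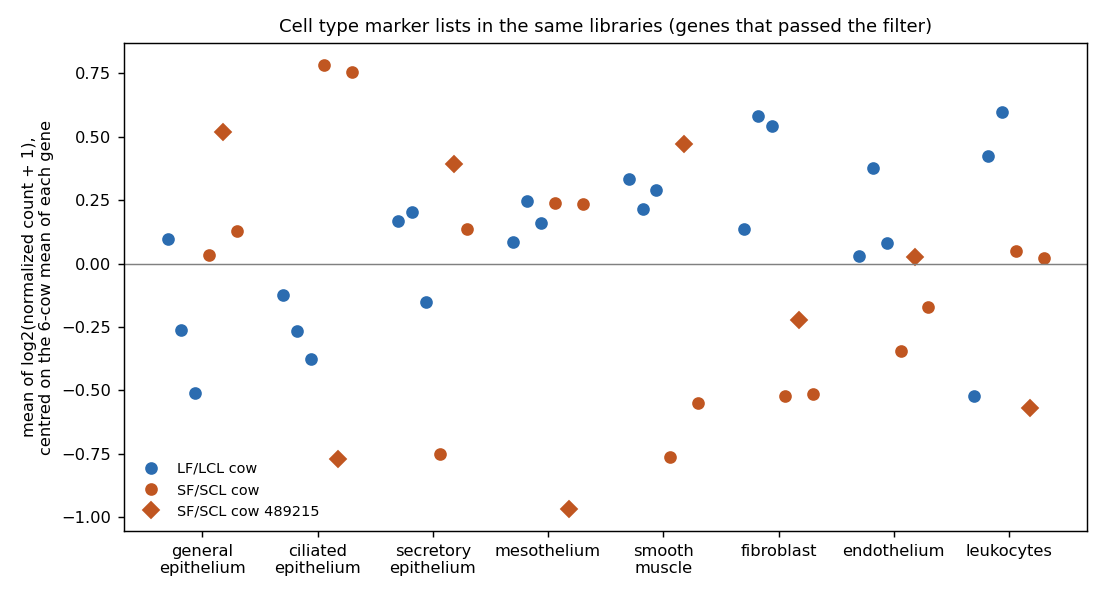
Mean of log2(normalized count + 1) over the tested genes of 8 cell type lists, centred on the mean of each gene over the 6 cows (vertical axis), for each cow (points; the diamond is SF/SCL cow 489215). Ciliated genes are highest in the SF/SCL cows 856 and 97, fibroblast genes are lower in all 3 SF/SCL cows than in all 3 LF/LCL cows, and cow 489215 is highest for general epithelium and smooth muscle.

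For WT1 and mesothelium, 12 of the 13 listed marker genes were found and 6 were tested, 3 with a higher mean in either group. The summed list was 14002 to 14503 in LF/LCL, 34940 to 37479 in cows 856 and 97 and 21894 in cow 489215. Without MSLN it was 12131 to 13695 in LF/LCL, 17350 to 19381 in cows 856 and 97 and 19595 in cow 489215. In the sum, the distance of cow 489215 from the other SF/SCL cows thus rested on MSLN. The mean centred log2 value of the 6 tested genes, which leave out MSLN, was -0.97 in cow 489215. It was 0.24 and 0.23 in cows 856 and 97 and 0.09 to 0.25 in LF/LCL. BNC1 was at 68.0, 97.6 and 73.8 in LF/LCL and at 23.5, 16 and 19.5 in SF/SCL, and LRRN4 at 283, 412 and 175 in LF/LCL and at 3.80, 5.33 and 16.3 in SF/SCL. UPK3B was at 87.0 to 326 in LF/LCL and at 37.2, 141 and 626 in SF/SCL cows 856, 489215 and 97, and CALB2 at or below 6.84 in every library. KRT19 was at 3270 to 7332 in LF/LCL and at 4858, 12551 and 6602 in SF/SCL cows 856, 489215 and 97. In the same order, ALDH1A1 was at 3787 to 6065 and at 7193, 6381 and 7373. GPM6A was at 243 to 437 and at 163, 121 and 173, and UPK1B at 17.8 to 89.2 and at 22.0, 29.3 and 184. Only some genes of the list were highest in cows 856 and 97 and lowest in cow 489215, as WT1 was. ALDH1A2, a retinoic acid synthesis enzyme, was at 468 to 792 in LF/LCL and at 1886, 121 and 2016 in cows 856, 489215 and 97, PODXL at 1189 to 1418 and at 2643, 226 and 1957, and PKHD1L1 at 9.42 to 83.4 and at 513, 2.66 and 410. MSLN and MUC16, which oviduct epithelium can express as well, were high in the same cows as WT1. MSLN was at 17590 and 18098 in cows 856 and 97 and at 808 to 2299 in the other 4, and MUC16 at 4052 and 6906 in those cows and at 268 to 470 in the other 4. OVGP1, the main secreted glycoprotein of the oviduct, was high in the same cows, at 271794 and 325158 in cows 856 and 97 and 287 to 1950 in the other 4. MSLN, MUC16 and OVGP1 are on the secretory list but did not pass the filter. Of the 8 genes of that list that were tested, 4 had a higher mean in SF/SCL and 4 in LF/LCL, with a median log2 fold change of -0.02. FOLR1 (ENSBTAG00000038532), a folate receptor of this list, was at 3419 to 7789 in LF/LCL and at 908, 10405 and 1735 in cows 856, 489215 and 97, opposite to OVGP1. LRRN4, CALB2, KRT19, ALDH1A1, UPK1B, ALDH1A2, PODXL, PKHD1L1, MSLN, MUC16 and FOLR1 were named here after their values had been seen.

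For SOX17 and endothelium, 14 of 15 endothelial genes and 7 of 8 arterial genes tested had a lower mean in SF/SCL, with median log2 fold changes of -0.27 and -0.64. CDH5, the cadherin of endothelial junctions, had a log2 fold change of -0.87, and SOX18, the relative of SOX17 in vessels, of -0.82, neither past the adjusted threshold (limma, adjusted p = 0.437 and 0.675). The endothelial sum was 19535 to 24948 in LF/LCL and 15606 to 24646 in SF/SCL. The arterial sum was 4435 to 6397 in LF/LCL, 3834 in cow 489215 and 7145 to 11372 in cows 856 and 97. Without GJA5, a gap junction gene at 4126 and 8051 in cows 856 and 97 and 620 to 1063 in the other 4, it was 3716 to 5778 in LF/LCL, 3019 to 3321 in cows 856 and 97 and 3097 in cow 489215. GJA5 was named after its values had been seen. The endothelial sum was 15606 and 16770 in cows 856 and 97, whereas that of cow 489215, 24646, lay within the LF/LCL range. The part of vessel cells in the SOX17 difference was not tested.

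To set each factor beside the tissue it belongs to, its log2 value was taken relative to the mean log2 value of 19 epithelial genes, or of 24 fibroblast and smooth muscle genes, in the same library. Relative to these epithelial genes, FOXA2 no longer overlapped between the groups. It lay at -2.52, -2.30 and -3.29 in LF/LCL and at -3.87, -3.80 and -3.54 in SF/SCL, a difference of -1.03 (exact permutation test, two-sided, p = 0.1). The differences of EMX2 and SOX17, 0.24 and 0.06, were smaller on this scale than their log2 fold changes, and their groups overlapped. All of this depended on the epithelial list. The second reference, the 8 secretory genes tested, leaves out OVGP1, MSLN and MUC16, which were high in cows 856 and 97. The mean centred log2 value of the 8 was -0.75 in cow 856, 0.39 in cow 489215 and 0.14 in cow 97. In LF/LCL it was -0.15 to 0.20. Relative to the 8 secretory genes tested, FOXA2 differed by -0.43 and overlapped, whereas EMX2 and SOX17 differed by 0.84 and 0.66, more than their log2 fold changes, and did not overlap. PAX8 relative to the 19 epithelial genes was at -0.83 and -0.92 in cows 856 and 97, at -2.05 to -1.70 in LF/LCL and at -2.93 in cow 489215.

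Relative to fibroblast and smooth muscle genes, EMX2 was at -3.06 to -2.73 in LF/LCL and -1.74 to -1.25 in SF/SCL, a difference of 1.41 (exact permutation test, p = 0.1) with no overlap. WT1 on this scale was at -0.40 and -0.61 in cows 856 and 97, while cow 489215, at -4.18, lay within the LF/LCL range of -4.32 to -4.02. GATA6 and TCF21 had differences of 0.52 and 0.39, opposite in sign to their log2 fold changes, and their groups overlapped. The exact permutation test gave p = 0.2 for both.

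**Figure D4:**
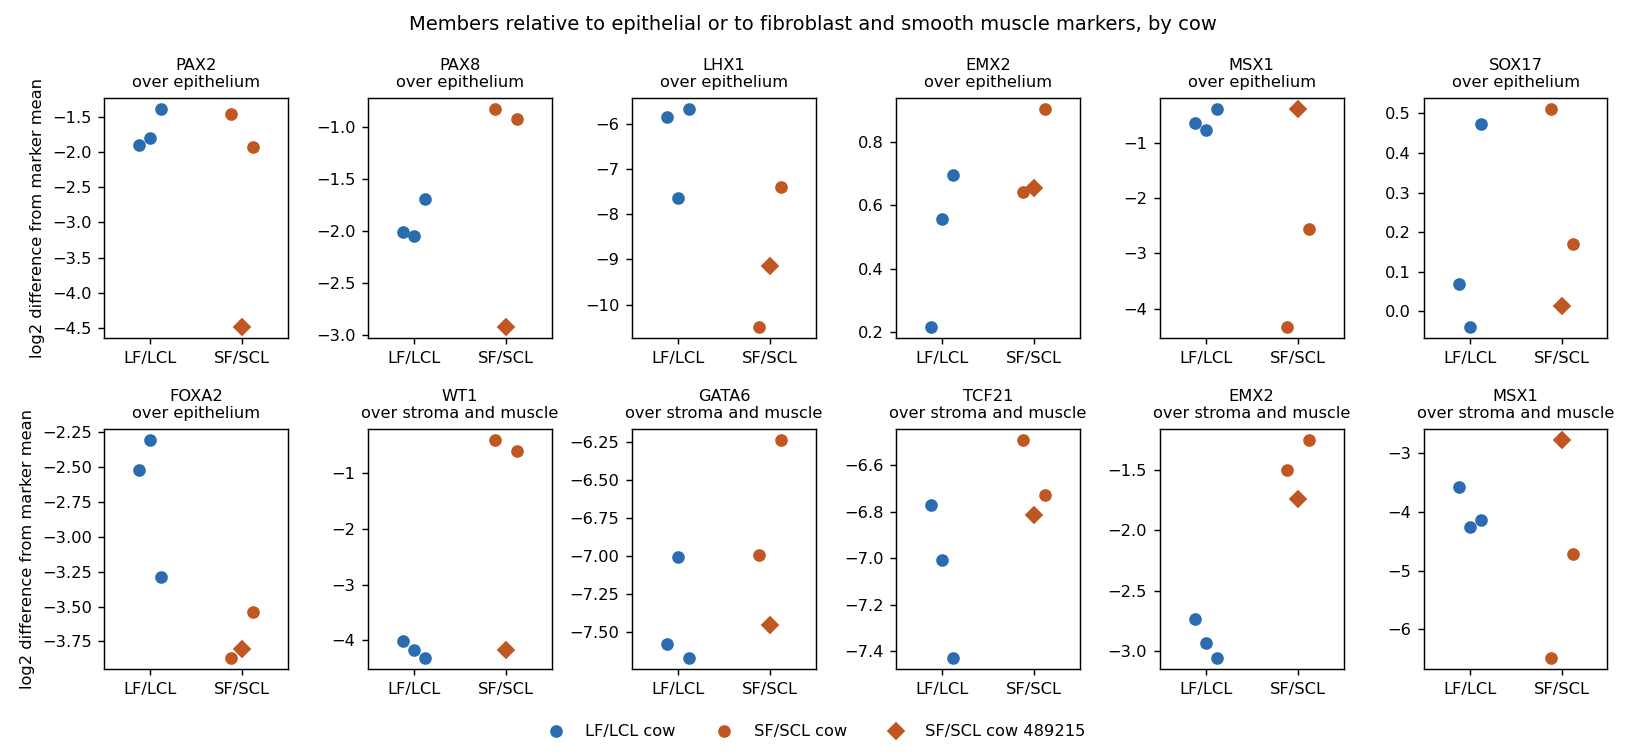
Log2(normalized count + 1) of a factor minus the mean of the marker genes in the same library (vertical axis, its own scale in each panel), by cow, for epithelial markers (the 7 panels from PAX2 to FOXA2) and for fibroblast and smooth muscle markers (the other 5, titled stroma and muscle). With these lists, groups do not overlap for FOXA2 over epithelium or for EMX2 over fibroblast and smooth muscle.

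Other genes of Müllerian and urogenital development were read from a list of 40, of which 38 were found and 31 tested. Of these, 12 had a higher mean in SF/SCL and 19 in LF/LCL, with a median log2 fold change of -0.19, and 6 of the 31 did not overlap between the groups, a share near the 18.1% of all genes. SALL1, a zinc finger factor of kidney development (-1.36), and ACVR1, a BMP type I receptor (0.51), reached 0.05 before adjustment, and 0 of the 31 after it. Without cow 489215, 8 of the 31 passed, beside 18.2% of all genes in that fit. Among them, CELSR1, VANGL1, DICER1 and SMAD5 were higher in SF/SCL, and OSR2, NR2F2 and GATA2 higher in LF/LCL. The planar polarity gene CELSR1, which orients oviduct epithelium, had 4573 and 4817 in cows 856 and 97, 342 in cow 489215 and 1264 to 1786 in LF/LCL.

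Among paralogues, 28 of 31 listed were found and 13 tested. PAX1, PAX4, PAX7, LHX5 and LHX8 were at 0 in every library, and PAX3, PAX5, PAX6 and PAX9 did not exceed 10.6. Of the PAX genes listed, PAX2 and PAX8 were the ones well covered here. MSX2, the relative of MSX1, was at 37.7, 42.2 and 19.3 in LF/LCL and at 130, 37.3 and 147 in SF/SCL. MSX2 was thus high where MSX1 was low, with a log2 fold change of 1.48 (limma, adjusted p = 0.597), and 2.11 without cow 489215 (limma, adjusted p = 0.019). EGR2, which like WT1 has zinc fingers of the EGR type, had a log2 fold change of -1.95 (limma, adjusted p = 0.405). Its normalized counts were low, at 36.6, 24.4 and 13.2 in LF/LCL and at 5.32, 3.99 and 6.50 in SF/SCL. Of 20 cofactor genes tested, 9 had a higher mean in SF/SCL. TLE2, a corepressor (-0.90), and SSBP3, a partner of LHX1 complexes (0.80), reached 0.05 before adjustment, and 0 of the 20 after it.

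The genes with the pattern most like each factor were found by the root mean square difference of centred log2 values over the 6 cows, among 12513 other genes with a mean of at least 100. For PAX8 they were REEP6 (0.08), BCL11A (0.10) and PPIP5K1 (0.11), and for EMX2 PIGB (0.07), PKP2 (0.07) and FUSIP1 (0.08). PAX2 lay closest to SLX4IP (0.06), ENSBTAG00000021968 (0.08) and AGO4 (0.08), MSX1 to HPN (0.30), CYLC1 (0.32) and IFI47 (0.37), and SOX17 to FANCF (0.08), ENSBTAG00000009057 (0.08) and SLC50A1 (0.09). FOXA2 lay closest to ENSBTAG00000000357 (0.17), ETV5 (0.20) and GJA4 (0.21), GATA6 to ENSBTAG00000046839 (0.16), CAGE1 (0.17) and TULP2 (0.18), and TCF21 to ZNF428 (0.07), CNN2 (0.07) and ENSBTAG00000046237 (0.07). For WT1, added after its values had been seen and without the condition on the SD, they were FAM3B (0.20), LAMP5 (0.20) and ENSBTAG00000011511 (0.23). FAM3B was at 160 to 199 in LF/LCL and at 1070, 177 and 1316 in cows 856, 489215 and 97. All genes of this paragraph were chosen for likeness over the same 6 cows, so that a shared order follows from the choice. Of the 3 genes nearest to MSX1, all were low in cows 856 and 97 and highest in cow 489215. The plot of counts by cow shows this order for MSX1 itself.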

How the data were processed

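Isthmus RNA-Seq libraries of 3 LF/LCL and 3 SF/SCL cows were compared. The authors filtered the reads with seqyClean, mapped them with TopHat2 2.0.8 and Bowtie2 2.1.0 on the masked UMD 3.1 assembly of Bos taurus, counted unique reads per Ensembl gene with HTSeq 0.5.4p2 and divided them by DESeq 1.12.1 size factors. The deposited signal is these normalized counts, of which 100% were whole multiples (within 0.001) of 1 step per library, so that reads could be recovered. Strand use is not given in the sources used here. In RefSeq (NIAB-ARS_B.indTharparkar_mat_pri_1.0, another assembly, used for names alone), PAX8, EMX2, WT1 and GATA6 each overlap 1 other gene model, whose reads may not be told apart from theirs.

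Genes were kept if their mean exceeded 5 and their SD, and tested with limma 3.58.1 (R 4.3.3; trend and robust) on log2(value + 1), SF/SCL against LF/LCL, without covariates, with Benjamini-Hochberg adjustment over all genes tested. Recovered reads were also fitted with edgeR 4.0.16 (quasi-likelihood) and DESeq2 1.42.0, and single values had an exact permutation test. The fits were also run on simulated counts without a deviating library, which cannot show how cow 489215 affects the calls. The labels do not say whether libraries shared a batch. Members and gene lists were chosen with earlier results of these data known. Genes named by rule were the members, defining markers and the 3 genes nearest in pattern to each member. Listed genes with an unadjusted p-value under 0.05 (at most 6 per list) also met the rule, but not all of them are printed. CELSR1, VANGL1, DICER1, SMAD5, OSR2, NR2F2, GATA2, MSX2 and FOXA1 did not meet it and were named with their values known. So were the listed genes given as low or at 0. CDH1 and PECAM1 were not used here.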

Additional observations from a re-analysis of the deposited data

How the results depend on the processing

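The number of genes past the adjusted threshold was 0 in the limma fit of all 6 cows and with edgeR, other pseudocounts, other filters or TMM scaling. It was 409 with DESeq2, 536 with DESeq2 and the filter on the mean alone (chosen after seeing the data), 4581 with array weights, in which cow 489215 weighed 0.0477, and 0 to 2827 over the fits without 1 cow. The number of factors past it was 0 in the same fits, 1 with DESeq2 (EMX2), 2 with DESeq2 and the filter on the mean alone (EMX2 and WT1), 4 with array weights (EMX2, PAX8, MSX1 and SOX17) and 0 to 4 when each cow was left out. Of 159 values of single factors under the alternatives, 144 kept direction and side of the threshold, 11 passed it and 4 changed sign. PAX2 changed to 0.23 with array weights, and ran from -0.96 to 0.32 over the cows left out, and GATA6 from -0.43 to 0.048. Of 96 values relative to marker genes, 5 changed sign, each when 1 cow was left out. PAX2 relative to epithelium ran from -1.51 to 0.0081, PAX8 from -0.0090 to 1.04, SOX17 from -0.075 to 0.22 and MSX1 relative to fibroblast and smooth muscle from -1.62 to 0.24. SOX17 changed to -0.039 without LF/LCL cow 79. With the tested secretory genes as reference, FOXA2 moved from -1.03 to -0.43, EMX2 from 0.24 to 0.84 and SOX17 from 0.06 to 0.66. Such a change of reference moves each factor by the same amount, since only the subtracted mean differs. The cause of the other changes was not tested. LHX1 did not pass the filters without LF/LCL cow 527 or SF/SCL cow 97, and WT1 did not pass without SF/SCL cow 856 or 97. No paired analysis was possible because each cow gave 1 isthmus library and the labels give no replicate numbers, those used here being accession order. With 3 cows per group, an exact test cannot go below 0.1.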

Other observations

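IHH is a hedgehog ligand of uterine epithelium. It was at 1225, 1973 and 2478 in LF/LCL and at 102, 3300 and 403 in SF/SCL cows 856, 489215 and 97, with a log2 fold change of -1.82 (limma, adjusted p = 0.762) and of -3.16 without cow 489215 (limma, adjusted p = 0.0157). Like MSX1, IHH was highest in cow 489215 and lowest in cows 856 and 97, and it was singled out after its values had been seen. Of the 7 genes of uterine epithelium and glands tested, IHH among them, 2 had a higher mean in SF/SCL and 5 in LF/LCL. The median log2 fold change of the 7 was -0.58, and 0.12 without cow 489215. FOXA1, the relative of FOXA2, was at 104, 23.5 and 19.3 in LF/LCL and at 191, 9.32 and 134 in SF/SCL, an order unlike that of FOXA2. Of the genes of mesonephric and renal tubules, where PAX2 and PAX8 also act, UMOD and HNF4A were at 0 in every library, CDH16 did not exceed 11.4, and LRP2, an endocytic receptor, was at 9318, 13394 and 14466 in LF/LCL and at 1161, 3167 and 1331 in SF/SCL. LRP2 had a log2 fold change of -2.84 (limma, adjusted p = 0.351), and of -3.29 without cow 489215 (limma, adjusted p = 0.00148). Of the 4 tubule genes tested, LRP2 among them, 2 had a higher mean in SF/SCL and 2 in LF/LCL. Their median log2 fold change was 0.18, and 0.58 without cow 489215.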
